A study of Mus musculus with 23 samples.

Results

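Bmf and 9 further genes of the BCL2 family (Bcl2l11, Bid, Bbc3, Pmaip1, Bax, Bak1, Bcl2, Bcl2l1 and Mcl1) were followed across 23 male mouse liver arrays that compare the PXR ligand pregnenolone 16α-carbonitrile (PCN) with its vehicle in wild-type (WT) and Pxr-/- mice. Bmf was chosen by its large fall after PCN in WT mice, so its values there, and every comparison that uses the WT arrays, are given for Bmf as a description with no test. The other 9 genes were chosen as family members. These 10 genes are 10 of the 37074 genes named on the array. All 10 were tested among the 21056 genes with a probe above background, on 22 of their 23 probes. The 1 probe left out belongs to Bid and was not well above background on any array.

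PXR, encoded by Nr1i2, is a nuclear receptor that senses foreign compounds, and PCN activates it in rodents. WT CONT (6 arrays) were C57BL/6J mice, bought at 6 weeks of age and kept for 2 weeks before use, that were injected with corn oil alone. WT PCN (5 arrays of 6 planned) received 100 mg/kg PCN in corn oil into the peritoneum once a day for 4 days. Pxr-/- CONT (6 arrays) and Pxr-/- PCN (6 arrays) were treated alike and carried the Pxr deletion on a C57Bl/6J background. Their colony had been bred in the animal facility for years, so genotype and colony cannot be told apart. All livers were taken at ZT6, 6 h after the last injection. Each sample is whole liver, in which fewer cells of a type and less RNA per cell cannot be told apart.

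The BCL2 family decides whether the outer mitochondrial membrane stays intact. BH3-only proteins (Bmf, Bim from Bcl2l11, Bid, Puma from Bbc3, Noxa from Pmaip1) sense stress. They bind the guardians Bcl-2, Bcl-xL from Bcl2l1 and Mcl-1, or act on the effectors Bax and Bak, which open the membrane and release cytochrome c. Bmf is held by a dynein light chain in the myosin V motor complex until it is freed. Hepatocytes depend on Bcl-xL and Mcl-1 for survival, and Bid links death receptors to mitochondria in these cells.

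The array reads each gene with 60-base probes, and where in a transcript a probe lies matters below. The 3 probes shown here lie in coding sequence, and each disagreed in size or in genotype pattern with another probe of its gene. They are printed 5′ to 3′ as the array files give them, with mm9 coordinates. The capitals in the Bcl2l11 probe mark the codons of the glycine and aspartate at the centre of the BH3 region, and the coordinates of that probe span an intron.
Bmf, chr2:118358312-118358371, minus strand: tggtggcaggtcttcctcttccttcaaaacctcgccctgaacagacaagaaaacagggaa
Bcl2l11, chr2:127972893-127983988, plus strand: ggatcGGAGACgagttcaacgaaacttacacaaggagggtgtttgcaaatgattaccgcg
Bcl2l1, chr2:152655185-152655244, minus strand: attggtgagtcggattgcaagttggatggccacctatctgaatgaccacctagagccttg

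Each gene was read from its brightest probe (named first below), and its other probes are given beside it. Of the 10 brightest probes, 3 (those of Bmf, Bcl2l1 and Mcl1) hold the polyadenylation hexamer AATAAA, searched on the printed strand only. Over all 23 member probes the count was also 3, beside 9.77% of all 56605 probes on the array. The share among the brightest probes of all genes was not counted. The brightest Bmf probe lies at chr2:118354496-118354555 (mm9, minus strand). The array files place it 3816 bases downstream of the coding probe in the same transcript. Signals are log2 fluorescence after quantile normalisation, and a change was called at a Benjamini-Hochberg adjusted p of at most 0.05 over all probes with a fold change above 1.5, in limma.

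The arrays detected between 29510 and 33321 of the 56605 probes well above background. Cyp3a11, the standard PXR target, rose by 3.55 on the log2 scale in WT PCN (adjusted p 4.12e-10) and differed by 0.31 in Pxr-/- PCN (adjusted p 0.431). The Nr1i2 probe did not separate the genotypes (mean 11.5 ± 0.55 in WT CONT and 11.4 ± 0.80 in Pxr-/- CONT, SD, n = 6 each). Where that probe lies relative to the deletion is not given in the sources used here. All 6 hepatocyte markers (Alb, Apoa1, Ttr, Tat, Cyp2e1, Cps1) were well above background on all 23 arrays. In the stellate and cholangiocyte lists 1 of 6 markers each was called higher in WT mice (Col1a1 by 3.17, Sox9 by 0.76). In each of these lists 4 markers rose and 2 fell in WT mice. The summed stellate level ran from 14.3 to 15.1 in WT CONT and from 14.5 to 14.9 in WT PCN. The summed cholangiocyte level ran from 10.6 to 12.3 in WT CONT and from 11.7 to 13.0 in WT PCN. After PCN in Pxr-/- mice 1 of 6 stellate markers (Col1a1, by 1.96) and 1 of 6 hepatocyte markers (Apoa1, by 0.62) were called higher. There all 6 stellate markers rose, while 4 hepatocyte markers rose and 2 fell. The summed level of the stellate list ran from 14.1 to 14.8 in Pxr-/- CONT and from 14.1 to 15.0 in Pxr-/- PCN, and that of the hepatocyte list from 19.8 to 19.9 in both. Of the 6 cholangiocyte markers 0 were called in Pxr-/- mice, while 5 rose and 1 fell. Their median change was 0.61, beside 0.57 in WT mice. Their summed level ran from 10.9 to 11.8 in Pxr-/- CONT and from 11.2 to 12.5 in Pxr-/- PCN. None of the Kupffer, endothelial, lymphocyte and blood markers was called after PCN in either genotype. The part of such cells in the results below was not tested.

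Bmf fell far below its control level in PCN-treated WT livers. On the brightest probe the 6 WT CONT arrays ran from 8.96 to 10.2 with a median of 9.69. The 5 WT PCN arrays read 7.997, 7.36, 7.46, 7.51 and 7.92. Every WT PCN array lay below every WT CONT array, and the fitted change was -2.05 ± 0.22 (SE), to 0.242 of the control signal. Among all 21056 genes this was the fall of rank 6, between those of Rs5-8s1 (-2.11, rank 5) and Kcnk10 (-2.03, rank 7). Within washing batch 1 the change was -2.16 and within washing batch 2 it was -1.93.

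In Pxr-/- mice Bmf also fell after PCN. The gene was picked on its WT fall, but with earlier results of these data known. The Pxr-/- test below is therefore not fully independent of the choice. The 6 Pxr-/- CONT arrays ran from 9.02 to 10.0 (median 9.58) and the 6 Pxr-/- PCN arrays from 7.84 to 9.23 (median 8.67). The groups overlapped, because Pxr-/- PCN replicates 1 and 6 lay above the lowest Pxr-/- CONT arrays. The fitted change was -0.94 ± 0.21 (SE), to 0.520 of the control signal, with an adjusted p of 0.00926 in limma. The change was -0.85 within washing batch 1 and -1.04 within washing batch 2, and in neither batch alone did it pass (adjusted p 0.199 and 0.149).

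The PCN change of Bmf in WT minus that in Pxr-/- mice was -1.10 on the log2 scale, given without a test because it uses the arrays on which Bmf was picked. Under corn oil the groups overlapped, and Pxr-/- minus WT was -0.10. After PCN the signal in Pxr-/- mice stood 1.00 above that in WT mice. These 2 groups overlapped, since Pxr-/- PCN replicate 2 (7.84) lay below the 2 highest WT PCN arrays.

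**Figure D1:**
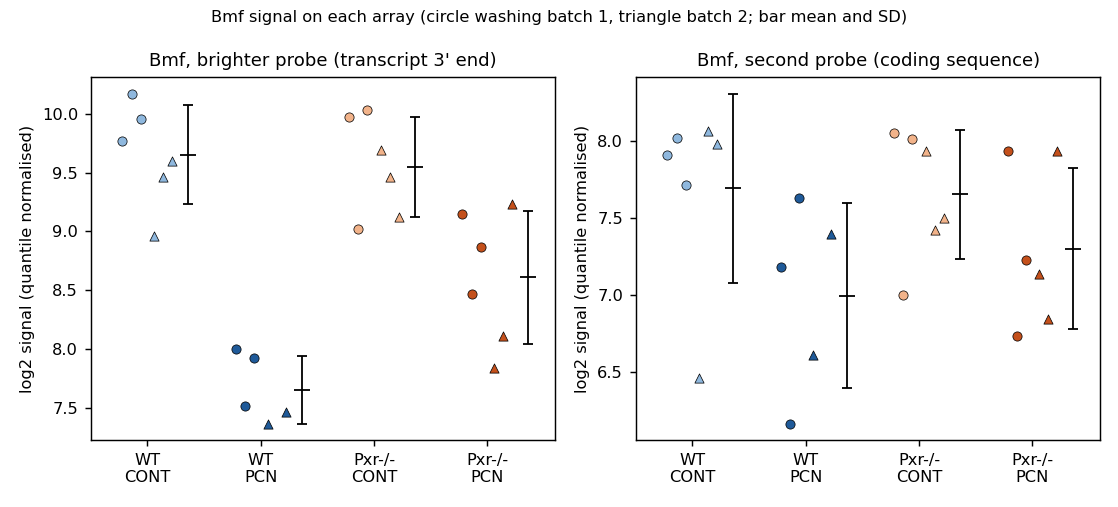
Log2 signal of both Bmf probes on each of the 23 arrays by group, with circles for washing batch 1, triangles for batch 2 and bars for the mean and SD. On the brighter probe WT PCN (7.36 to 7.997) lies wholly below WT CONT, while on the coding probe all 4 groups overlap.

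The coding probe of Bmf moved less than the probe at the transcript end. It was well above background on all 23 arrays, with WT CONT from 6.46 to 8.07 (median 7.94) and WT PCN from 6.16 to 7.63 (median 7.18). These groups overlapped, and the change was -0.71 ± 0.31 (SE). The same probe changed in Pxr-/- mice by -0.35 ± 0.29 (SE), with an adjusted p of 0.529. WT CONT replicate 2 read 6.46 on it while the other 5 WT CONT arrays read 7.72 to 8.07, and without that array the WT change was -0.94. Averaged over both probes, Bmf changed by -1.38 in WT mice. The average in Pxr-/- mice was -0.65 and no longer passed. The reason why the probes differ was not tested.

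Of the BH3-only members other than Bmf none was called on its brightest probe in any comparison. Of the 9 members other than Bmf, 1 was called lower and 0 higher after PCN in WT mice, where 2.39% of all genes were called lower and 3.79% higher. After PCN in Pxr-/- mice 0 of the 9 were called in either direction in limma, against 0.86% of all genes lower and 1.42% higher. At an unadjusted p under 0.05, with no fold limit, there were 4. The share of all genes at that unadjusted limit was not counted in any comparison. Counts at that limit, here and below, therefore cannot be read as an excess. The median change of the 9 was -0.06 in WT and -0.07 in Pxr-/- mice, beside -0.02 and -0.01 over all genes.

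Bcl2l11 encodes Bim, a BH3-only protein that binds all guardians, and its probes split by position. The brightest probe read 8.76 to 9.33 (median 9.04) in WT CONT and 8.84 to 10.1 (median 9.72) in WT PCN, overlapping groups with a change of 0.44 ± 0.17 (SE) and an adjusted p of 0.0642. It changed by -0.07 in Pxr-/- mice (adjusted p 0.860). With the log2 values that the authors deposited the WT change was 0.60 and was called (adjusted p 0.0113), and without WT PCN replicate 4 it was 0.61 and called. The median gene of the deposited table rose by 0.12 in WT mice.

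The probe over the BH3 codons, printed above, read from 5.46 to 5.76 (median 5.58) in WT CONT. The 5 WT PCN arrays read 6.04, 6.49, 5.72, 5.97 and 6.01. All WT PCN arrays but replicate 3 lay above every WT CONT array, and the change was 0.47 ± 0.11 (SE), with an adjusted p of 0.00272 and a fold of 1.38, under the limit of 1.5.

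The same BH3 probe changed by -0.18 ± 0.10 (SE) in Pxr-/- mice (adjusted p 0.308). Its response to PCN differed between the genotypes by 0.65 ± 0.15 (SE), with an adjusted p of 0.0222 in limma. The difference was 0.63 within washing batch 1 and 0.70 within washing batch 2, without passing in either (adjusted p 0.167 and 0.238). After PCN all 6 Pxr-/- arrays (5.45 to 5.67) lay below all 5 WT arrays on this probe. It is a dim probe, well above background on 20 of 23 arrays. The other 2 Bcl2l11 probes, designed on another transcript of the gene, changed by -0.06 and -0.19 in WT mice (adjusted p 0.678 and 0.147). Their difference in response between the genotypes was 0.07 and -0.05 (adjusted p 0.845 and 0.899 in limma). On the brightest probe it was 0.51 and did not pass (adjusted p 0.320).

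Bid, which caspase-8 cleaves to carry death receptor signals to mitochondria, read 9.64 to 10.2 (median 10.1) in WT CONT and 9.26 to 9.95 (median 9.65) in WT PCN. The change was -0.39 ± 0.13 (SE), with an adjusted p of 0.0339 and a fold of 0.764, so it was not called. It rested on 1 washing batch. The change was -0.74 (adjusted p 0.00181) within batch 1 and 0.06 (adjusted p 0.872) within batch 2. Bid changed by -0.28 in Pxr-/- mice (adjusted p 0.187).

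Bbc3, a p53 target that encodes Puma, changed by -0.10 ± 0.22 (SE) in WT mice (adjusted p 0.792). Its change in Pxr-/- mice was -0.46 ± 0.21 (SE, adjusted p 0.209). Its arrays spread more under PCN (SD 0.53 in WT PCN and 0.52 in Pxr-/- PCN) than under corn oil (0.092 and 0.25). Without Pxr-/- PCN replicate 5 the Pxr-/- change was -0.64 and was called. Pmaip1, which encodes Noxa, the partner of Mcl-1, changed by 0.29 in WT and 0.30 in Pxr-/- mice (adjusted p 0.186 and 0.233).

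**Figure D2:**
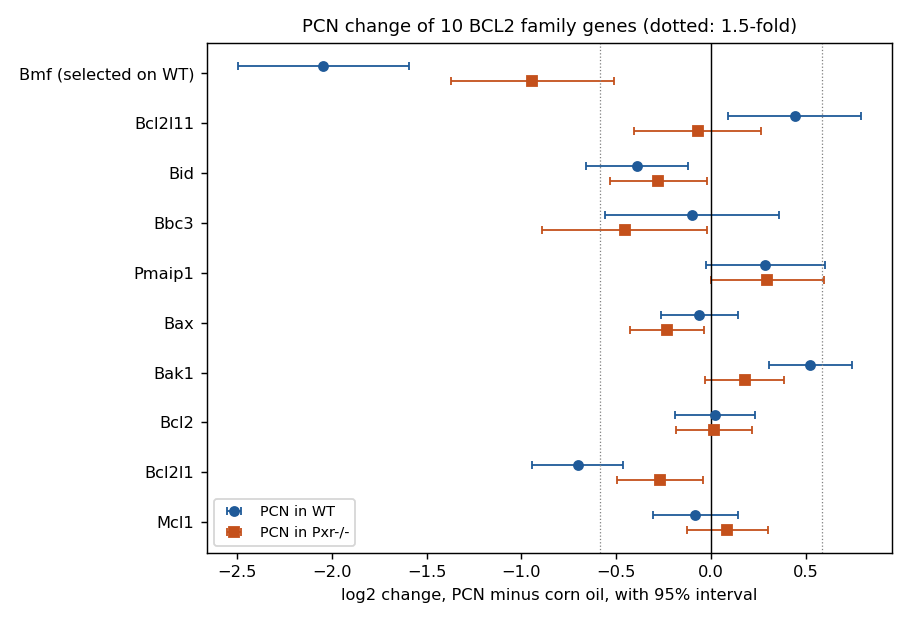
Log2 change, PCN minus corn oil, with 95% intervals for the 10 genes on their brightest probes, circles for WT and squares for Pxr-/- mice, with dotted lines at 1.5-fold. Bmf (-2.05 in WT, -0.94 in Pxr-/-) and Bcl2l1 (-0.70 in WT) have point values beyond 1.5-fold, and the other point values lie inside it.

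Of the effectors Bak1 rose in WT mice, under the limit for a call, and Bax moved little there. Bak1, whose product sits in the outer mitochondrial membrane, read from 10.3 to 10.7 (median 10.6) in WT CONT. The 5 WT PCN arrays ran from 10.9 to 11.3 (median 11.1). All 5 WT PCN arrays lay above all 6 WT CONT arrays, with a change of 0.53 ± 0.11 (SE) and an adjusted p of 0.00114. The fold of 1.44 kept Bak1 below the limit for a call, and the changes within washing batches 1 and 2 were 0.50 and 0.59. With the deposited log2 values it was 0.69 (adjusted p 3.93e-04) and was called, in a table whose median gene rose by 0.12 in WT mice.

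Bak1 in Pxr-/- mice changed by 0.18 ± 0.10 (SE, adjusted p 0.318), with overlapping groups. The difference between the genotypes was 0.35 ± 0.15 (SE, adjusted p 0.267). Bax, the cytosolic effector that moves to mitochondria, changed by -0.06 in WT mice (95% interval -0.27 to 0.15, adjusted p 0.713). Its Pxr-/- change was -0.23 (adjusted p 0.144). Its second probe changed by 0.07 and -0.08.

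Among the guardian members Bcl2, Bcl2l1 and Mcl1, only Bcl2l1 was called after PCN, and it fell in WT mice. On the brightest probe the WT CONT arrays ran from 12.4 to 12.8 (median 12.6), and the WT PCN arrays read 12.1, 11.7, 11.8, 11.9 and 12.0. All 5 WT PCN arrays lay below all 6 WT CONT arrays. The change was -0.70 ± 0.12 (SE), to 0.614 of the control signal, with an adjusted p of 1.84e-04 in limma. It was -0.64 within washing batch 1 and -0.82 within washing batch 2, and was called in both.

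The other 4 Bcl2l1 probes also fell in WT mice, by smaller amounts. They changed by -0.29 to -0.43 (adjusted p 0.0131 to 0.0327), all under 1.5-fold, and the probe printed above gave the largest of these, -0.43 ± 0.12 (SE). On 3 of these 4 the WT PCN and WT CONT arrays did not overlap, and the share of all probes without overlap was not counted. Averaged over all 5 probes the change was -0.43 and was no longer called. With the log2 values that the authors deposited, it was -0.53 (adjusted p 0.00203), also under 1.5-fold. In that table the median gene rose by 0.12 in WT mice, so that Bcl2l1 fell further relative to it.

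Bcl2l1 in Pxr-/- mice changed by -0.27 ± 0.11 (SE, adjusted p 0.145), with Pxr-/- PCN from 12.4 to 12.8 and Pxr-/- CONT from 12.5 to 13.2. Of its other 4 probes 1 passed the adjusted p there (-0.30, adjusted p 0.0484, under 1.5-fold), and that probe was well above background on 17 of 23 arrays. The difference in response between genotypes was -0.43 ± 0.16 (SE) and did not pass (adjusted p 0.195). After PCN the level was 0.65 ± 0.12 (SE) higher in Pxr-/- than in WT mice, with an adjusted p of 0.00141 and no overlap between the groups. Under corn oil the same difference was 0.21 (adjusted p 0.471). The other 4 probes stood 0.16 to 0.56 higher in Pxr-/- than in WT mice after PCN. Their adjusted p ran from 0.00458 to 0.333, and all stayed under 1.5-fold. On the brightest probe the call after PCN was lost in 4 of 35 alternative settings.

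**Figure D3:**
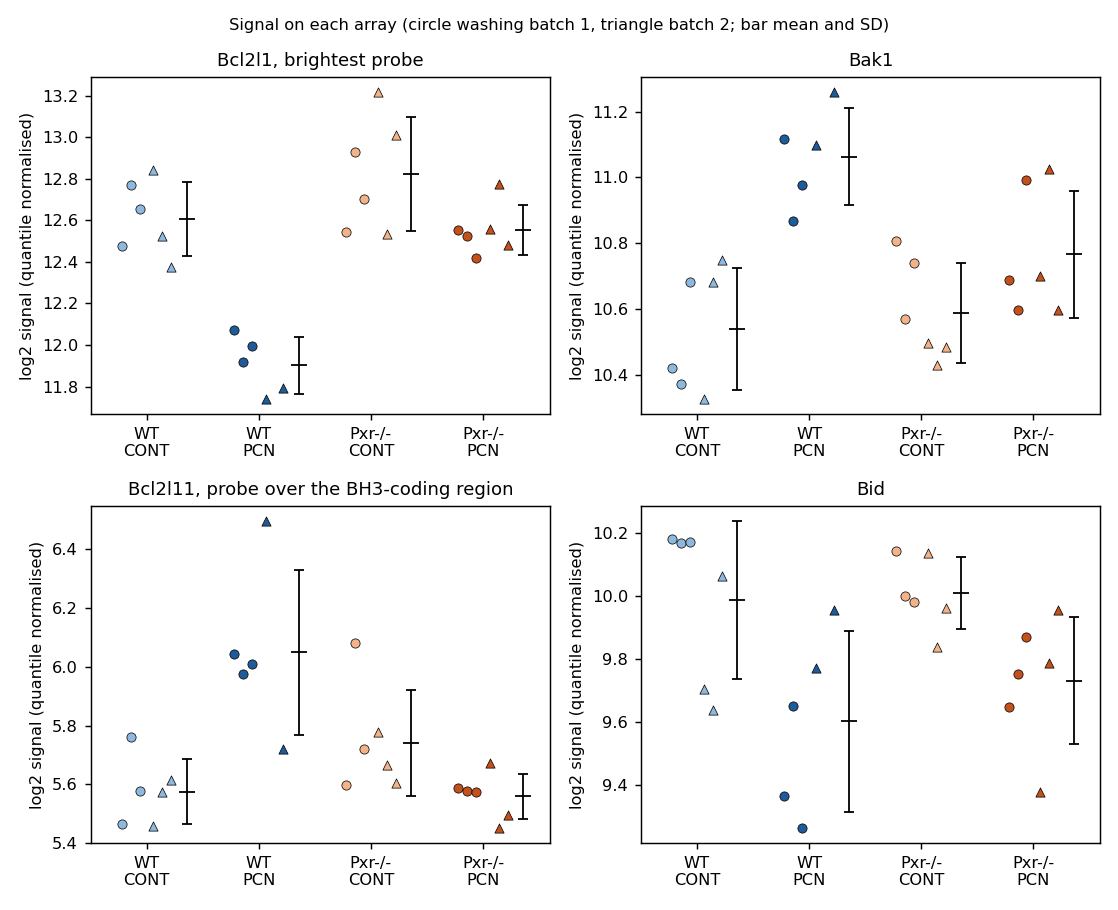
Log2 signal of Bcl2l1, Bak1, the BH3-coding probe of Bcl2l11 and Bid on each array, with circles for washing batch 1, triangles for batch 2 and bars for the mean and SD. WT PCN stands apart from WT CONT for Bcl2l1 (below) and Bak1 (above), while for Bid the 3 batch 1 arrays of WT CONT lie above those of batch 2.

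Bcl2, the founding guardian, was flat in both genotypes, with changes of 0.02 in WT (95% interval -0.19 to 0.23) and 0.02 in Pxr-/- mice (-0.18 to 0.22). Its 2 other probes changed by 0.05 and 0.06 in WT mice. Mcl1, which encodes a guardian with a short half-life, changed by -0.08 in WT and 0.09 in Pxr-/- mice (adjusted p 0.637 and 0.680), and its second probe by 0.00 and 0.19. Bcl2l2, a guardian gene outside the 10, is named after its values were seen. Its mean fell from 9.50 to 9.04 in WT mice and from 9.46 to 9.12 in Pxr-/- mice, without a call in either.

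**Figure D4:**
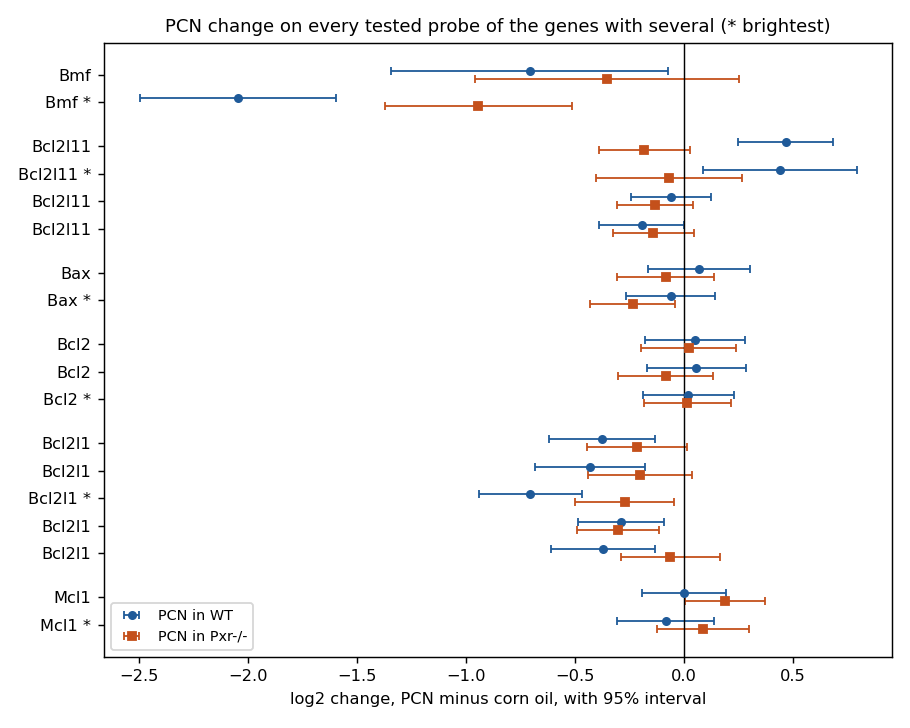
Log2 change, PCN minus corn oil, with 95% intervals on each tested probe of the 6 genes with several, circles for WT and squares for Pxr-/- mice, the brightest probe starred. Both Bmf probes and all 5 Bcl2l1 probes lie below 0, and the 4 Bcl2l11 probes split into a pair above and a pair below 0 in WT mice.

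Between genotypes, 0 of the 9 members other than Bmf were called under corn oil in limma (0 also at an unadjusted p under 0.05), where 0.228% of all genes were called higher and 0.0807% lower in Pxr-/- mice. After PCN 1 of the 9 (Bcl2l1) was called higher and 0 lower in Pxr-/- mice, where 0.731% of all genes were higher and 1.36% lower. On the brightest probes 0 of the 9 had a called difference in response, against 0.807% of all genes with a more positive and 0.242% with a more negative response in WT mice. At an unadjusted p under 0.05 that difference was reached by Bcl2l11, Bak1 and Bcl2l1, a limit at which the share of all genes was not counted. The comparisons in WT and between genotypes after PCN share the WT PCN arrays.

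Other genes of the pathway, from lists of family members and neighbours, were called in small numbers. Beside each list below, 3.79% of all genes were called higher and 2.39% lower after PCN in WT mice. In Pxr-/- mice the shares were 1.42% and 0.86%. Of 12 tested further BCL2 family genes, 2 were called higher and 0 lower in WT mice, beside a median of -0.07. These were Bik, a BH3-only gene (0.94, adjusted p 8.49e-04), and Bcl2a1d, an anti-apoptotic gene of blood cells (0.76, adjusted p 0.0127). In Pxr-/- mice 1 was called, Bcl2l14, which fell by 0.93 (adjusted p 0.00746). Means moved the same way, uncalled, in the other genotype. Bik rose from 8.34 to 8.91 and Bcl2a1d from 8.17 to 8.47 in Pxr-/- mice, and Bcl2l14 fell from 7.04 to 6.83 in WT mice. A difference in response was called for 0 of the 12, against 0.807% of all genes more positive and 0.242% more negative in WT mice. Neutrophil markers moved with PCN too. S100a8, S100a9 and Retnlg were called higher in both genotypes, by 2.21, 2.03 and 2.76 in WT mice and by 2.19, 2.00 and 2.76 in Pxr-/- mice. They are 3 of the 5 tested of 6 listed, of which 4 rose and 1 fell in each genotype. In WT mice all 5 had an unadjusted p under 0.05 in limma. The summed level of the list ran from 14.7 to 15.1 in WT CONT and from 14.8 to 15.3 in WT PCN. In Pxr-/- mice it ran from 14.8 to 15.1 under corn oil and from 15.1 to 15.6 after PCN. Ngp, the listed marker left out, was well above background on 2 arrays. The part of neutrophils in the Bcl2a1d result was not tested.

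None of the 17 apoptosome and caspase genes was called in any of the 5 comparisons in limma. After PCN in WT mice 6 had an unadjusted p under 0.05, with the share of all genes at that limit not counted. In WT mice their median change was -0.09, with 12 of 17 below 0. Of 10 tested death receptor genes, 1 was called higher and 1 lower in WT mice. Tnfrsf10b, which encodes the TRAIL receptor, rose by 0.68 (adjusted p 0.0101), and Cflar, which encodes the caspase-8 inhibitor c-FLIP, fell by 0.62 (adjusted p 5.09e-04). The Tnfrsf10b probe was dim, with a WT CONT mean of 5.82, and was well above background on 5 of those 6 arrays. In Pxr-/- mice Fas (0.66, adjusted p 0.0178) and Tnfrsf1a (0.65, adjusted p 0.00522), both death receptors, were called higher. The same genes moved in the same direction in the genotype where they were not called. The WT mean of Fas rose from 10.3 to 10.8 and that of Tnfrsf1a from 12.6 to 12.9. The Pxr-/- mean of Tnfrsf10b rose from 5.76 to 5.87 and that of Cflar fell from 11.9 to 11.7. A difference in response was called for 0 of the 10, against 0.807% of all genes more positive and 0.242% more negative in WT mice.

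Of 12 upstream regulators, 2 were called higher in WT mice and 0 in Pxr-/- mice (3 at an unadjusted p under 0.05, a limit not counted over all genes). Myc, a growth regulator that can induce Bim, rose by 2.77 in WT mice (adjusted p 1.85e-06), and its response differed from that in Pxr-/- mice by 2.24 (adjusted p 0.00417). Jun, a target of stress kinases, rose by 1.24 in WT mice (adjusted p 0.00263). Its mean also rose in Pxr-/- mice, from 10.3 to 10.9, without a call, and its difference in response was not called. Foxo1, a transcription factor with BH3-only targets, was 0.64 higher in Pxr-/- than in WT mice after PCN (adjusted p 0.0204). Trp53 and Foxo3 changed by 0.27 and -0.15 in WT mice (adjusted p 0.0808 and 0.359) and are named after their values were seen.

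Of 9 partner genes, Dynll1, a dynein light chain, was called higher in WT mice by 0.70 and in Pxr-/- mice by 0.72 (adjusted p 0.00794 and 0.0165). Myo5a, which encodes the myosin V heavy chain, differed by -0.61 after PCN, Pxr-/- minus WT (adjusted p 0.0124). Dynll2, the light chain that binds Bmf, is named after its values were seen. It fell in both genotypes under 1.5-fold. The change was -0.52 in WT (adjusted p 2.85e-04) and -0.30 in Pxr-/- mice (adjusted p 0.0388).

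The genes whose signals followed Bmf most closely over the 23 arrays were Rnf152, Wdr91, Pithd1, Ccdc30 and Rufy3, among 15057 genes named in RefSeq. Their Pearson correlations with the brightest Bmf probe were 0.941, 0.930, 0.921, 0.916 and 0.915, with Spearman coefficients from 0.868 to 0.904. After group and washing batch means were removed the Pearson values fell to between 0.398 and 0.795. The arrays share the 4 group means and the normalisation, and 218 genes lay above 0.8. Among the members the nearest were Bid (0.681) and Bcl2l1 (0.670), and the most opposed was Bak1 (-0.674). Within groups those 3 values were 0.336, -0.206 and 0.096.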

How the data were processed

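Liver RNA of 23 mice was hybridised singly to 1-colour Agilent mouse arrays. Per the labels, the scans were read with Agilent Feature Extraction 10.10.1.1. The authors deposited the scanner intensity of each spot and a table of log2 values. Per the study's methods they filtered the spots, took the log2 of the median signal, corrected the washing batch and normalised between arrays. The scanner intensities, with genome positions on mm9, were used here.

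Spots flagged as outliers were left out (2225 of them), log2 median signals were averaged over the spots of a probe, and probes well above background on over 50% of the arrays of at least 1 group were kept (32087 of 56605). Values were quantile normalised. Limma 3.58.1 (R 4.3.3) fitted the 4 groups with washing batch as a term over all 23 arrays, with Benjamini-Hochberg adjustment over all kept probes. The fit was tested on simulated data. A gene was read from its brightest kept probe, and the percentages of genes called use 1 probe per gene. The number of arrays limits the precision. Per the labels the samples of a group are separate mice of 1 experiment.

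The members and gene lists were chosen with earlier results of these data known. The named genes are all members, up to 5 genes per pathway list that were called in at least 1 comparison, and the 5 genes most correlated with Bmf. Exceptions are marked in the text. Alternatives were the deposited log2 values, processed signals scaled to the 75th percentile, normexp background correction (offset 50), no filter and a stricter filter, no washing batch term, slide as a random block, only the groups compared, the replicate number as a block, each washing batch alone, each array left out, and the mean of all probes of a gene.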

Additional observations from a re-analysis of the deposited data

Results flagged for a closer look

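Dixon's test for a single outlying array was run in 48 groups (the brightest probes of the 10 genes, the Bmf coding probe and the BH3 probe of Bcl2l11, in 4 groups each), and chance flags about 1 in 20. It marked 2 arrays. On the Bmf coding probe WT CONT replicate 2 read 6.46, below the nearest array at 7.72. On the brighter Bmf probe that array read 8.96 and was also the lowest of its group. On the BH3 probe of Bcl2l11, Pxr-/- CONT replicate 2 read 6.08, above the nearest at 5.78.

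The BH3 probe of Bcl2l11 is also listed because its response to PCN differed between the genotypes by 0.65 on the log2 scale, with an adjusted p of 0.0222 in limma. The adjusted p ranged from 0.0188 to 0.238 over the other processing settings and from 0.00616 to 0.0455 when each array was left out. On the brightest and the remaining Bcl2l11 probes the difference did not pass (adjusted p 0.320 to 0.899 in limma).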

How the results depend on the processing

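The number of members past both limits was 2 in WT, 1 in Pxr-/- mice, 0 for the difference in response, 0 between genotypes under corn oil and 2 between genotypes after PCN. Bmf is in these counts, but in each of them that uses WT arrays, all except the count in Pxr-/- mice, its place is a description with no test, since it was picked on those arrays. Without Bmf the counts were 1, 0, 0, 0 and 1. With each washing batch alone it was 0 in Pxr-/- mice and 0 between genotypes after PCN, where batches hold 2 or 3 arrays per group. With the mean of all probes of a gene it was 1 in WT, 0 in Pxr-/- mice and 0 between genotypes after PCN. The Bmf change was then -1.38 in WT and -0.65 in Pxr-/- mice, the latter not called, as were those within washing batches 1 and 2 (-0.85 and -1.04). With each array left out in turn the counts ran from 2 to 3 in WT (3 without WT PCN replicate 4, with Bcl2l11 added), from 1 to 2 in Pxr-/- mice (2 without Pxr-/- PCN replicate 5), from 0 to 1 for the difference in response (Bmf alone, untested, without WT CONT replicate 2 or without Pxr-/- PCN replicate 2), from 0 to 0 under corn oil and from 2 to 3 after PCN (3 without WT PCN replicate 3 or 4, with Bcl2l11 added). The Bmf change ran from -2.14 to -1.97 in WT and from -1.12 to -0.82 in Pxr-/- mice, where the adjusted p ran from 0.00131 to 0.0303.

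The replicate numbers were not treated as pairs in the main fit. Same-numbered arrays correlated from -0.17 to 0.61 in their deviations from group means, and 7 of 23 arrays correlated best with their own number. The number that chance would give was not worked out, so these values do not settle whether the numbers pair samples. With the replicate block the count for the difference in response was 1. That 1 is Bmf, for which this comparison is no test, and the other 4 counts did not move. Slide as a random block (correlation 0.00951), the other background correction, scaling and filters, no batch term and only the groups compared changed none of the 5 counts.

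With the deposited log2 values 3 members were called in WT mice, Bmf (-1.92), Bak1 (0.69) and Bcl2l11 (0.60), while Bcl2l1 (-0.53) fell under 1.5-fold. The median gene changed there by 0.12 in WT mice and by -0.19 between genotypes after PCN, against -0.02 and 0.01. The share of calls that were higher was 84.3% in place of 61.3% in WT, 73.6% in place of 62.4% in Pxr-/- mice, 87.7% in place of 76.9% for the difference in response, 45.0% in place of 73.8% under corn oil and 5.02% in place of 34.9% after PCN. The cause was not tested. Over 60 member changes and their 2090 alternative values, 13 called changes no longer passed, 12 newly passed, no called change turned sign and 96 uncalled values did. Signals near background, such as the BH3 probe of Bcl2l11, limit what can be read.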
